A study of Mus musculus with 12 samples.

Results

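The genes described here are 10 immediate early genes, Fos, Fosb, Jun, Junb, Egr1, Dusp1, Zfp36, Ier2, Cd69 and Ppp1r15a, out of 32285 genes in the count tables. They were followed in 8715 cells out of 39949 barcodes. A barcode was kept when it held at least 1000 UMIs (unique molecular identifiers, each standing for 1 captured RNA molecule) outside immunoglobulin genes, and when its top light chain V gene gave at least 50% of its light chain V UMIs. The second condition keeps barcodes in which 1 light chain dominates. The study sorted antibody-secreting cells of 3 organs (bone marrow, spleen, thymus) from either sex and made 1 single-cell 5' gene expression library per sex and tissue, 6 in all. All 6 groups were C57BL/6 mice of 3 months that carried the Prdm1-eYFP reporter, which marks cells with an active Prdm1 locus, the gene of the plasma cell regulator Blimp-1. Each sort pooled 3 mice and gated B220 positive or negative, CD138 high, IgD negative, CD90.2 negative, eYFP positive cells, and the labels name no treatment. The list was chosen by earlier measured values of these files, among them the sex difference of Fos and Dusp1 and the tissue difference of Egr1, which are therefore described without a test. A library is 1 pool of animals. The sample titles carry 1 prefix for all female and another for all male libraries, and the labels leave unsaid what it marks and if 1 pool gave all 3 tissues of a sex. Sex, prefix and pool therefore cannot be told apart, and tests between the sexes take the 3 tissues as if they were replicates.

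Immediate early genes are switched on within minutes of a stimulus, without new protein synthesis, through transcription factors that are already present in the cell. Fos, Fosb, Jun and Junb encode subunits of the AP-1 transcription factor, Egr1 a zinc finger transcription factor, Dusp1 a phosphatase that turns off MAP kinases, and Zfp36 a protein that marks short-lived mRNAs for decay. Ier2 encodes a nuclear early response protein, Cd69 a membrane lectin that holds lymphocytes in tissues by removing the exit receptor S1pr1 from their surface, and Ppp1r15a (GADD34) a phosphatase subunit that reverses the translational arrest of stressed cells. These genes are also known to respond to tissue dissociation and sorting. In the tables they are Fos (ENSMUSG00000021250), Fosb (ENSMUSG00000003545), Jun (ENSMUSG00000052684), Junb (ENSMUSG00000052837), Egr1 (ENSMUSG00000038418), Dusp1 (ENSMUSG00000024190), Zfp36 (ENSMUSG00000044786), Ier2 (ENSMUSG00000053560), Cd69 (ENSMUSG00000030156) and Ppp1r15a (ENSMUSG00000040435).

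The kept cells numbered 1238 in female bone marrow, 1665 in male bone marrow, 3567 in female spleen, 1850 in male spleen, 107 in female thymus and 288 in male thymus. Their UMIs outside immunoglobulin genes summed to between 264621 (female thymus) and 21287170 (female spleen) per library, so counting error was widest in the thymus. At most 11 barcodes were shared by any 2 libraries. Plasma cell genes were present in every library (Prdm1 at 840.4 to 1068 CPM, that is UMIs of a gene per 1e+06 UMIs outside immunoglobulin genes), and of the B cell genes Pax5, Fcer2a and Cd22 stayed at or under 3.34 CPM while Cd74 reached 11791 or more. The 12 T cell genes summed to 86.9 CPM in female and 33.6 in male thymus and to 12.6 to 16.4 elsewhere, with Trbc2 at 52.9 and 10.1 in thymus and at most 0.505 elsewhere, and Thy1 (CD90), against which the sort gated, at 0 in all 6 libraries. Neutrophil genes summed to 552 CPM in the female and 1416 in the male marrow library and to under 1 elsewhere, which tells the marrow libraries apart from the rest. Xist and Ddx3y matched the labelled sex in all 6 libraries. In barcodes of at most 100 UMIs outside the filtered list, which hold free RNA, the 10 genes summed to 385 to 1009 CPM, against 761 to 1849 in the kept cells. The ratio of the cell level to that free RNA level was 2.76 in female and 1.27 in male marrow, 1.5 in female and 1.56 in male spleen, and 2.36 in female and 1.40 in male thymus. The labels name no separate cultures or animals behind a library, and each sex and tissue has 1 library. P-values therefore rest on how far the sums depart from the fitted terms, and on a spread that edgeR shares across genes. They do not measure the spread among replicate pools.

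Summed over the 10 genes, female bone marrow (1849 CPM) and female spleen (1512) stood above male spleen (897), female thymus (907), male bone marrow (761) and male thymus (762). The members nevertheless followed different orders. Fos, Jun, Junb, Egr1, Fosb, Dusp1, Ier2 and Ppp1r15a were each highest in female bone marrow, Zfp36 was highest in female spleen, and Cd69 was highest in female thymus. From highest to lowest library the level ranged 13.1-fold for Egr1, 9.63-fold for Fosb and 9.36-fold for Fos, and 1.65-fold for Ppp1r15a and 1.80-fold for Zfp36. Because 1 UMI stands for 1 captured molecule of any length, levels were set side by side between genes, although differences in capture between genes were not measured. By UMIs, Fos and Jun led in female bone marrow, and Zfp36 led in both male libraries of marrow and spleen and in both thymus libraries. Along each gene's order, 1 to 3 of the 5 steps between neighbouring libraries separated exact 95% Poisson intervals, which cover counting error alone.

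**Figure D1:**
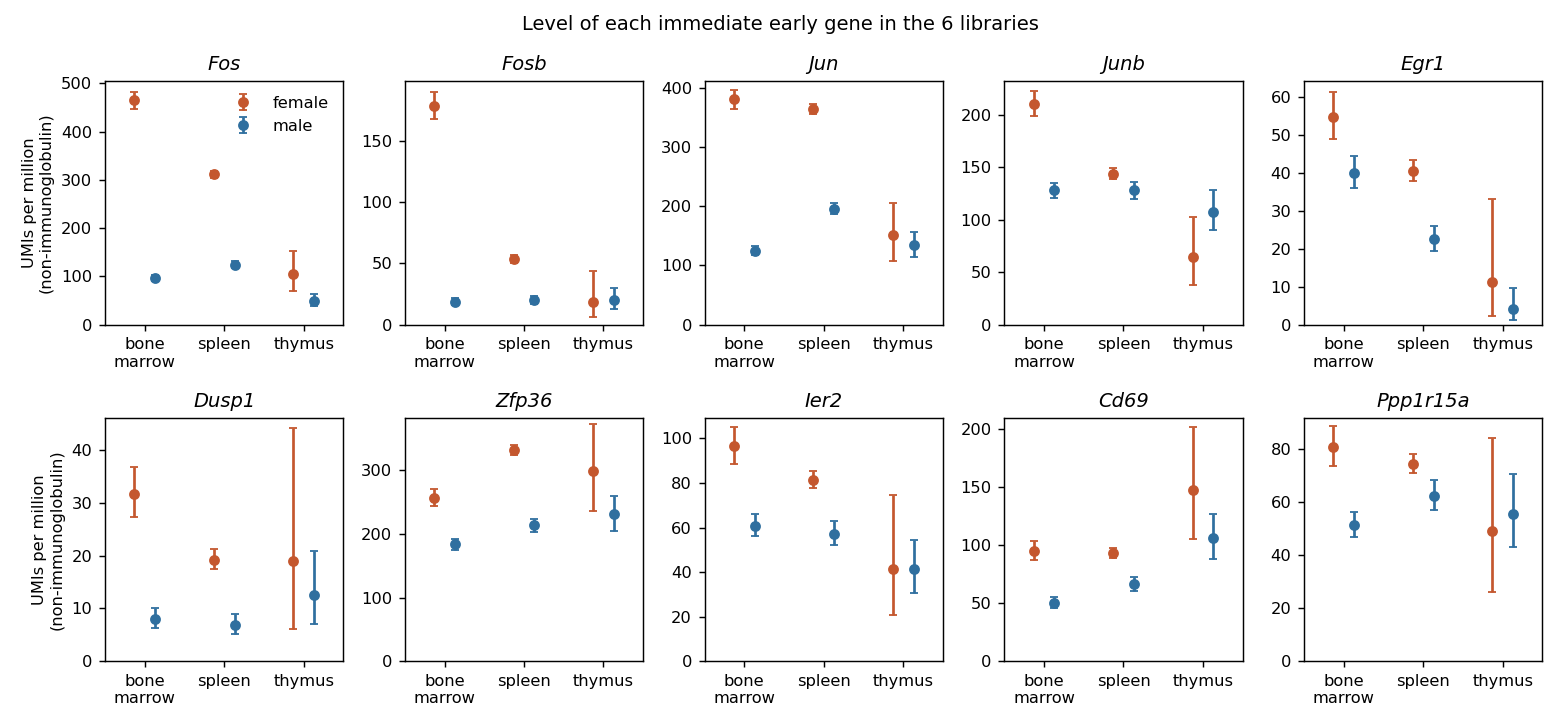
Level of each immediate early gene (y axis, CPM, each panel with its own scale from 0) in bone marrow, spleen and thymus (x axis) of female and male pools, 1 library per point, with exact 95% Poisson intervals. The female bone marrow and female spleen points stand above the male points of the same tissue in every panel, from 1.12-fold (Junb in spleen) to 9.63-fold (Fosb in marrow), while the thymus points have wide intervals.

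In marrow and in spleen every member's level was lower in the male than in the female library. Fos, the partner of Jun in AP-1, measured 464 CPM in the marrow, 312 in the spleen and 106 in the thymus of females and 95.9, 124 and 49.6 in the male libraries of the same tissues. Each male value was below the female value of its tissue, with male to female ratios of 0.206, 0.399 and 0.469, yet the highest male level lay above the lowest female level. Relative to barcodes of free RNA, Fos stood at 4.15, 1.57 and 3.49 times in the female and 1.12, 1.66 and 0.740 times in the male libraries. Fosb, a close relative of Fos, measured 178, 53.3 and 18.9 in the female and 18.5, 19.8 and 20.2 in the male libraries. These were 6.01, 1.55 and 3.08 times its free RNA level in females and 1.06, 1.13 and 1.59 times in males. The male marrow and spleen values were thus close in CPM to the free RNA level. Free RNA in the kept cells was estimated from light chain V UMIs outside the top gene. By that estimate it gave 18.3 of 172 Fosb UMIs in male marrow and 26.6 of 157 in male spleen. Male to female ratios of Fosb were 0.104 in marrow and 0.372 in spleen, whereas the thymus ratio was 1.07 with an interval of 0.400 to 3.58 on counts of 5 and 24 UMIs. Dusp1, the MAP kinase phosphatase, measured 31.7, 19.2 and 18.9 in the female and 7.96, 6.81 and 12.6 in the male libraries. All 3 female values of Dusp1 were above all 3 male values, but the thymus counts were 5 and 15 UMIs. The male to female ratio of Dusp1 there was 0.668, with an interval of 0.231 to 2.35.

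In edgeR's quasi-likelihood fit with sex and tissue as terms, the male minus female log2 difference was negative for each of the 8 members that did not choose the list by this difference, with a median of -0.74 beside 0.02 over all 11239 genes tested. Across sums per library and heavy chain class, Fosb and Jun followed the summed other members (Pearson's r of 0.83 and 0.77). The shared direction and the Fosb test below are therefore not independent of the values that chose the list. Fos (log2 difference -1.79, SE 0.31) and Dusp1 (-1.83, SE 0.26) are given without a test, because their sex difference was known from earlier results of these files. Of the 8 members tested, 1 passed an adjusted p of 0.05, against 0.267 percent of all genes called lower in males (0.427 percent in either direction). That gene was Fosb, which fell by 2.22 on the log2 scale (SE 0.35, edgeR adjusted p = 0.000628). The other 7 had adjusted p from 0.123 to 0.728. Among them Jun had a log2 difference of -1.10 (SE 0.32), Egr1 -0.93 (SE 0.25), Cd69 -0.81 (SE 0.25) and Junb -0.34 (SE 0.29).

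The sex difference rested on the marrow pair in part. Without female bone marrow the Fosb difference was -1.28 and without male bone marrow -1.24, both with an edgeR adjusted p of 1, and with the estimated free RNA subtracted it was -2.26 with an adjusted p of 0.401. With no tissue term it was -2.51 with an edgeR adjusted p of 0.236, and 0 of the 8 members tested passed. Fos was -1.44 and -1.43 without those libraries and -1.89 with free RNA subtracted, and Dusp1 was -1.55, -1.54 and -1.88. The opposite occurred when cells with a B cell marker were left out: Jun, Egr1, Ier2 and Cd69 then passed beside Fosb, 5 of the 8 tested, against 1.85 percent of all genes lower in males. Without dividing cells 4 of the 8 passed, against 1.46 percent. Of 7 neutrophil genes tested, 4 were called higher in males and 1 lower, Elane, at 105 CPM in female and 1.83 in male marrow. Without cells bearing a macrophage, T cell or neutrophil marker Fosb kept its call at -2.22. The median over 15 heat shock genes was -0.50 with 0 called by edgeR (7 at an unadjusted p under 0.05).

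Fos, Fosb and Dusp1 had the largest sex differences, so the bases before their start sites are shown, with those of Jun and Junb, which differed between heavy chain classes. RefSeq's promoter table for GRCm38.p6 held 7 of the 10 members, and the 250 bases before the start were searched on both strands for the cyclic AMP response element (CRE, TGACGTCA), its shorter core (TGACG or CGTCA), the AP-1 site (TGAGTCA or TGACTCA) and the CArG box, bound by serum response factor. Capitals mark matches, and a full CRE contains both forms of the core. The stretches are chr12:85473640-85473889 on the plus strand for Fos, and on the minus strand chr7:19310046-19310295 for Fosb, chr17:26508473-26508722 for Dusp1, chr4:95052223-95052472 for Jun and chr8:84978749-84978998 for Junb.
Fos: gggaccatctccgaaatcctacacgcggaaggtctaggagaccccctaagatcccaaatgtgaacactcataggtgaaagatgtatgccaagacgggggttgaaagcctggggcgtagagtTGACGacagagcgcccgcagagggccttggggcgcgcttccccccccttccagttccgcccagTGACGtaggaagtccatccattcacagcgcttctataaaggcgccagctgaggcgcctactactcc
Fosb: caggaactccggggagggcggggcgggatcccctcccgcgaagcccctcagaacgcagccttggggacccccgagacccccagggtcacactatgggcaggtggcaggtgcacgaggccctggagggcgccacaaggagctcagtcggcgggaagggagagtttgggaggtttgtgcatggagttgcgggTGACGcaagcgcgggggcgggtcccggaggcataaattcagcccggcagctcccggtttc
Dusp1: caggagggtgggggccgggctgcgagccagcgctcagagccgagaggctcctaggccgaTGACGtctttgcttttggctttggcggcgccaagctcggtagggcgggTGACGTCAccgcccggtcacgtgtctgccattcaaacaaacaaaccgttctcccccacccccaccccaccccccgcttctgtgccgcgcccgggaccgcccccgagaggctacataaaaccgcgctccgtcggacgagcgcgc
Jun: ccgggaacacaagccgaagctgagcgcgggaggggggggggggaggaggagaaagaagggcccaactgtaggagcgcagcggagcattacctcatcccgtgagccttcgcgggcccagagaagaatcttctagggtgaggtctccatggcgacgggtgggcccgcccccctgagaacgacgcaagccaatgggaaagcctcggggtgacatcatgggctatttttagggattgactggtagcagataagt
Junb: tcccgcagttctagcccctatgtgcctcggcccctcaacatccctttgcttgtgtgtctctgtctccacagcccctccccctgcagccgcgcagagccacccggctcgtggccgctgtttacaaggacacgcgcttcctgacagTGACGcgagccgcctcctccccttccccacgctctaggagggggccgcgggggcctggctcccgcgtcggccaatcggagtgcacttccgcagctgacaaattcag
The short core was found in 5 of the 7 promoters, those of Fos, Fosb, Junb, Dusp1 and Ppp1r15a, against 17.8% of all 32851 promoters of the same length. Fos held it 129 and 66 bases before its start, Fosb 60 bases before, and Junb 106 bases before. A full CRE lay 143 bases before the Dusp1 start and 12 bases before the Ppp1r15a start, and 1.55% of all promoters held one. A CArG box was in the Zfp36 promoter alone of the 7, 58 bases before the start, against 1.47% of all. The AP-1 letters were in 0 of the 7 and in 4.46% of all, and the Jun stretch held none of the 4 motifs. These matches are letters in a window and were not tied to the levels by any test. Sites farther from the start, or with letters other than those named, were not searched for.

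Egr1 was lowest in the thymus, and Fos was lower there than in the other tissues of the same sex. Egr1 measured 54.9 CPM in female and 40.1 in male marrow, 40.7 in female and 22.6 in male spleen, and 11.3 in female and 4.21 in male thymus. Both thymus values lay under all 4 others, on counts of 3 and 5 UMIs, and the male thymus value was 0.172 times the level in barcodes of free RNA. The fitted thymus minus bone marrow log2 difference of Egr1 was -3.11 (SE 0.46) and the thymus minus spleen difference -2.50 (SE 0.48), given without a test since this contrast of Egr1 was known from earlier results. In cells thinned to 1000 UMIs each, which sets every cell to the same depth, Egr1 was detected in 6.30% of female and 3.48% of male marrow cells, 4.60% and 2.22% of spleen cells and 0.935% of female thymus cells. In male thymus 0 of 288 thinned cells held an Egr1 UMI, which at that depth allows up to 1.27% of cells with a UMI (upper end of an exact Clopper-Pearson interval, counting error only), and 1.39% of these cells held one without thinning.

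Of the 9 other members, 1 passed the threshold in each thymus comparison. Fos fell by 1.79 on the log2 scale from bone marrow to thymus (SE 0.39, edgeR adjusted p = 0.0136) and by 1.67 from spleen to thymus (SE 0.38, edgeR adjusted p = 0.0298). The shares of all genes called lower were 0.24 and 0.133 percent, and 0.765 and 0.632 percent in either direction. The 2 comparisons share the thymus libraries. Within a sex, the Fos level in thymus was 0.228 times that in bone marrow in females and 0.517 times in males, and 0.340 and 0.399 times that in spleen. Over these 9 members the median difference was -0.81 against marrow and -0.61 against spleen, beside -0.02 and -0.04 over all genes. The list was chosen with the tissue difference of Egr1 known, so these medians are not independent of that choice. Fosb had a difference of -1.55 from marrow (SE 0.47, edgeR adjusted p = 0.214), a call made in 6 of 18 alternatives, and its thymus level was 0.106 times that in marrow in females and 1.09 times in males. Junb (-1.07, SE 0.37), Ier2 (-1.03, SE 0.33) and Jun (-0.81, SE 0.39) did not pass against marrow, with edgeR adjusted p of 0.251 to 0.566.

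Cd69 went the other way. It measured 147 and 106 CPM in female and male thymus, 95.2 and 50.3 in bone marrow and 92.8 and 66.2 in spleen. Each thymus value was above the values of the same sex elsewhere, but the male thymus interval (88.3 to 126) overlapped that of female marrow, and the difference from marrow was 0.61 (SE 0.31, edgeR adjusted p = 0.580). Zfp36, at 299 and 230.5 in thymus, 256 and 183 in marrow and 331 and 213 in spleen, differed from marrow by 0.02 (SE 0.35). The Fos calls were lost without female bone marrow, male bone marrow or female thymus, with free RNA subtracted and with a light chain share of at least 80%, and also with no sex term, with differences from -1.23 to -2.29 and adjusted p from 0.164 to 1. The T cell gene Trbc2 was called higher in thymus in both comparisons, 1 of 6 T cell genes tested. Neutrophil genes were called lower in thymus than in marrow, 7 of 7 tested with a median of -13.2. Of 9 macrophage genes, with medians of -1.18 against marrow and -1.14 against spleen, 1 was called lower in each comparison (Lyz2 and Apoe). Leaving out cells with a macrophage, T cell or neutrophil marker kept both Fos calls, at -1.70 and -1.51.

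No member passed the threshold between spleen and bone marrow. None of the 9 tested passed in edgeR (0 of 10 by DESeq2), 2 of 10 had an unadjusted p under 0.05, and 0.436 percent of all genes were called. Fosb had the lowest value, a spleen minus marrow log2 difference of -0.94 (SE 0.36, edgeR adjusted p = 0.630), but without the female bone marrow library it was 0.30. In females Fosb was at 178 CPM in marrow and 53.3 in spleen, and in males at 18.5 and 19.8.

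**Figure D2:**
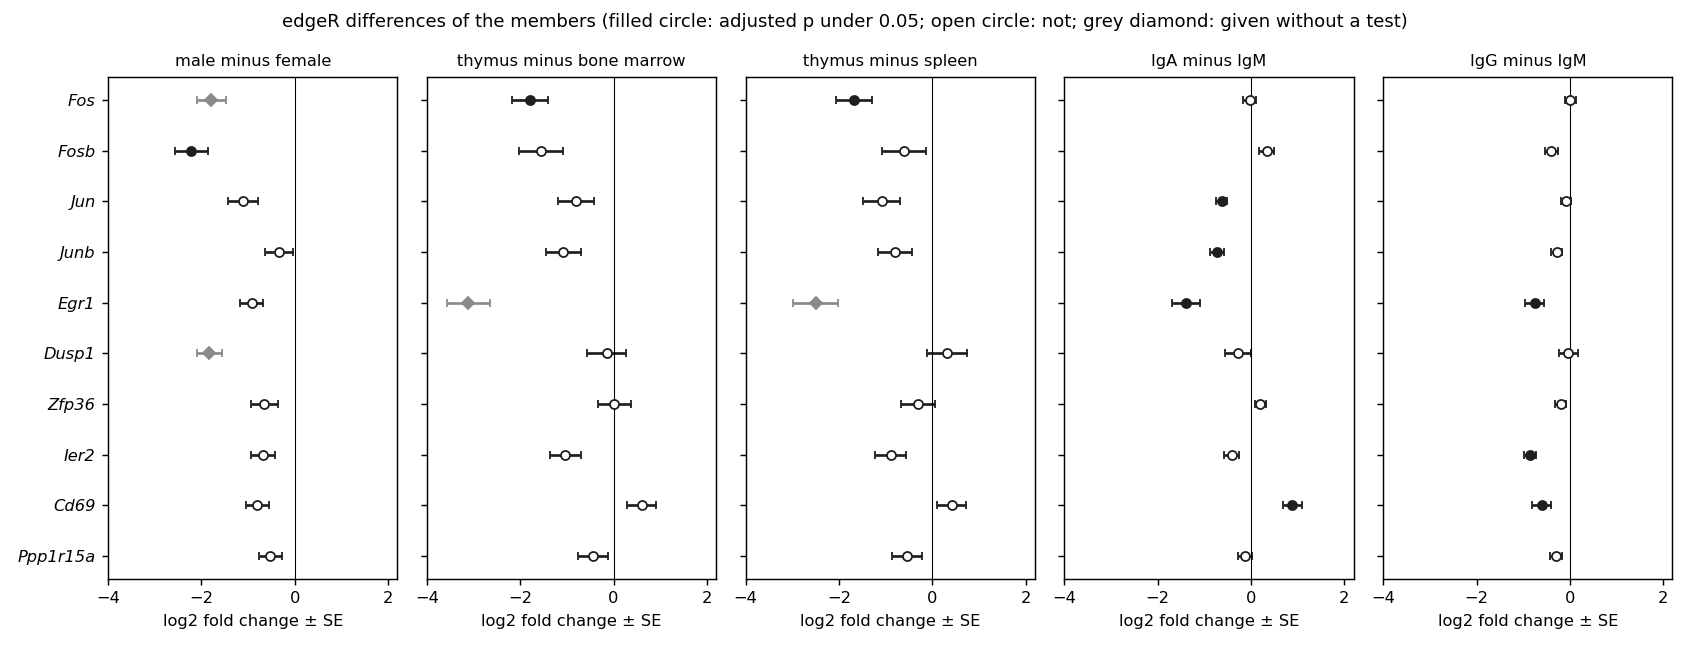
Log2 fold change with its standard error (x axis) of each member (y axis) in 5 edgeR comparisons, the first 3 over 6 library sums and the others over 16 sums per library and heavy chain class. All 10 points lie left of 0 for male minus female, Fos and Egr1 lie farthest left in the thymus comparisons, and Cd69 is the member farthest right for IgA minus IgM.

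Within libraries, cells were split by their top heavy chain constant gene. IgM cells were the most numerous in every library (72 to 2618), and IgG cells (17 to 703) outnumbered IgA cells (18 to 243) in each library but female thymus. Sums of at least 20 cells entered the fit, 16 in all, which left out the IgA and IgG cells of female thymus. The fit had a term for each library, so each class was compared with the others inside the same pool and tissue, which sets sex and tissue aside.

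IgA cells had less Jun, Junb and Egr1 and more Cd69 than IgM cells. Jun measured 390 in IgM and 278 CPM in IgA cells of female marrow, 392 and 210 in female spleen, 123 and 100.2 in male marrow, 199 and 119 in male spleen, and 146 and 88.8 in male thymus. It was lower in IgA in 5 of 5 libraries, and fell by 0.63 on the log2 scale (SE 0.13, edgeR adjusted p = 0.00116). Junb, an AP-1 subunit often set against Jun in its action, went from 224 to 114, 157 to 101, 127 to 85.3, 131 to 66.3 and 121 to 56.5 in the same order of libraries. It too was lower in 5 of 5, by 0.73 on the log2 scale (log2 difference -0.73, SE 0.15, edgeR adjusted p = 0.00109).

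Egr1 had the largest difference of the 10 members between IgA and IgM. Its IgM levels were 56.5 and 47.7 in female marrow and spleen and 42.0, 24.3 and 3.35 in male marrow, spleen and thymus. In IgA cells it was 16.6 and 24.2 in female marrow and spleen, on 7 and 32 UMIs, and 0 UMIs were counted in the 3 male libraries. A count of 0 allows up to 11.1, 19.9 and 24.2 CPM there (3 counts of the library's IgA total), so that the male marrow zero lies well below its IgM level, the male spleen one is near the limit, and in male thymus no difference was detectable at this depth. The fitted difference was -1.40 (SE 0.30, edgeR adjusted p = 0.00238), and the call held in 18 of 18 alternatives, with a difference of -2.52 without female spleen.

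Cd69 moved in the opposite direction. Its IgM and IgA levels were 88.2 and 157 in female marrow, 98.2 and 139 in female spleen, 46.8 and 182 in male marrow, 67.2 and 245 in male spleen, and 129 and 64.5 in male thymus. Cd69 was higher in IgA in 4 of 5 libraries and lower in male thymus, and rose by 0.89 on the log2 scale (SE 0.20, edgeR adjusted p = 0.00455). The call was lost in DESeq2 (log2 difference 0.89), without dividing cells (0.40), without male bone marrow (0.67), and with sex and tissue in place of library (0.94). Jun lost its call without female spleen and Junb with a light chain share of at least 80%, and both with sex and tissue in place of library.

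The 4 called members of 10 in IgA minus IgM stand beside 7.99 percent of all 9366 genes, 4.25 percent lower and 3.74 percent higher. Fos, the member with the widest gap in CPM between the sexes in marrow and in spleen, had a difference of -0.03 (SE 0.14) between IgA and IgM and of 0.01 (SE 0.12) between IgG and IgM. Its IgM, IgA and IgG levels in female marrow were 462, 419 and 511. They were 319, 243 and 306 in female spleen and 126, 206 and 103 in male spleen. Fos was higher in IgA than in IgM in 3 of 5 libraries and lower in 2. Zfp36 was higher in IgA than in IgM in 5 of 5 libraries, by a log2 difference of 0.19 (SE 0.12, edgeR adjusted p = 0.371). B cell genes were lower in IgA cells too, 6 of 7 tested, as were neutrophil genes, 6 of 8, and macrophage genes, 2 of 5. Their part in the class differences was not tested beyond leaving out cells with such markers, which kept all 4 calls.

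**Figure D3:**
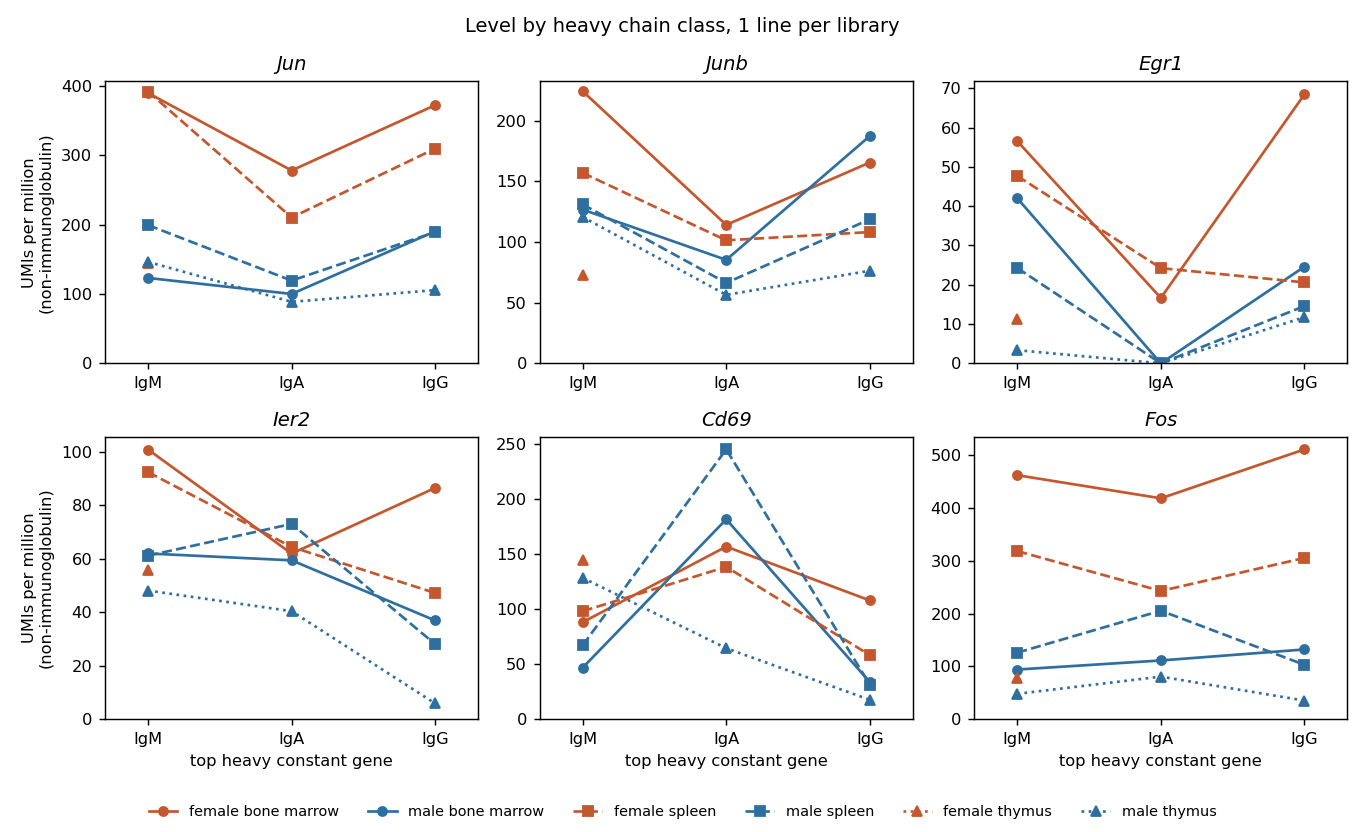
Level of 6 members (y axis, CPM, each panel from 0) by top heavy chain constant gene (x axis), with 1 line per library; colour gives sex, line style and marker give tissue, and only sums of at least 20 cells are drawn. Jun and Junb dip at IgA in all 5 lines, Egr1 is lower at IgA than at IgM in 4 and too thinly counted in male thymus, Ier2 is lower at IgG than at IgM in all 5, Cd69 peaks at IgA in 4, and the Fos lines of female marrow and spleen stay above the male lines at every class.

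IgG cells had less Ier2 than IgM cells. Ier2, whose product is an early nuclear protein, measured 101 and 86.4 CPM in IgM and IgG cells of female marrow, 92.3 and 47.1 in female spleen, 61.9 and 36.9 in male marrow, 61.1 and 28.0 in male spleen, and 48.1 and 5.87 in male thymus. IgG was below IgM in 5 of 5 libraries. Ier2 fell by 0.84 on the log2 scale (SE 0.13, edgeR adjusted p = 1.56e-05), and kept its call in 18 of 18 alternatives. Egr1 fell by 0.75 (SE 0.21, edgeR adjusted p = 0.0125), but was lower in 3 of 5 libraries only and lost its call in 5 alternatives, with a difference of -0.27 without female spleen. Cd69 fell by 0.60 (SE 0.20, edgeR adjusted p = 0.0493), a call that 7 of 18 alternatives kept. The 3 called members of 10 stand beside 11.6 percent of all genes (6.38 percent lower), and the IgM sums are the same ones as in the IgA comparison. Neutrophil genes were lower in IgG too, 8 of 8 tested with a median of -3.32, as were 2 of 5 macrophage genes. All 3 members kept their calls without cells bearing such markers, Ier2 at -1.02, Egr1 at -0.99 and Cd69 at -0.96.

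Between IgG and IgA, Cd69 differed most. Its IgG levels of 108, 58.4, 33.8, 31.4 and 17.6 CPM were below the IgA levels in each of the 5 libraries, and Cd69 fell by 1.49 on the log2 scale from IgA to IgG (SE 0.24, edgeR adjusted p = 7.09e-05), a call kept in 18 of 18 alternatives. Jun rose by 0.54 (SE 0.14, edgeR adjusted p = 0.00877) and was higher in IgG in 5 of 5 libraries. Fosb fell by 0.73 (SE 0.18, edgeR adjusted p = 0.00858) with 3 of 5 libraries lower, and Zfp36 fell by 0.39 (SE 0.13, edgeR adjusted p = 0.0468). Of 18 alternatives, the Jun call was lost in 4, the Fosb call in 6 and the Zfp36 call in 11. B cell genes were higher in IgG than in IgA, 6 of 7 tested; leaving out cells with such markers kept the calls of Cd69, Jun and Fosb and lost that of Zfp36 (-0.26). Of 9366 genes, 10.1 percent were called in this comparison (5.65 percent higher, 4.42 percent lower in IgG). Dividing cell genes were higher in IgG than in IgA (8 of 16 called) and than in IgM (8 of 16), and were not called between IgA and IgM (0 of 16 by edgeR, 1 at an unadjusted p under 0.05). Without dividing cells the IgG minus IgA calls of Fosb (-0.16) and Zfp36 (-0.091) were lost, those of Cd69 (-1.04) and Jun (0.68) were kept, and Ier2 kept its call between IgG and IgM.

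Shares of cells with a UMI were set side by side at equal depth. After thinning to 1000 UMIs, Fos was detected in 35.9% and 10.8% of female and male marrow cells, 27.3% and 10.0% of spleen cells, and 11.2% and 6.25% of thymus cells. Without thinning these shares were 62.2%, 24.9%, 59.8%, 23.7%, 15.0% and 12.8%. Jun was found in 33.6% and 13.4% of marrow cells, 32.6% and 16.9% of spleen cells, and 15.0% and 17.0% of thymus cells. Female marrow and spleen therefore exceeded the others in the share of cells as well as in level. Deep barcodes that failed the light chain rule, which can hold more than 1 cell or other cells, gave Fos in 23.9% and 12.7% of marrow and 30.4% and 9.39% of spleen barcodes at median depths of 1512 to 1829.5 UMIs, against 2797.5 to 4352 in the kept cells. No cell type without these genes was set apart here, so the free RNA levels above serve as a reference. Free RNA was an estimated median of 3.45% (female thymus) to 21.8% (female spleen) of a kept cell's UMIs. A level near the reference therefore does not make a gene's UMIs free RNA. Most single values lay above the reference, but some lay below. Among these were Fos in male thymus (0.740 times), Egr1 in female thymus (0.799), and Cd69 and Ppp1r15a in male marrow (0.824 and 0.790).

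At least 1 of the 10 genes was detected in 77.5% and 51.6% of thinned marrow cells, 74.4% and 53.0% of spleen cells, and 57.0% and 53.8% of thymus cells. Cells with 3 or more members made up 26.7% of female and 5.95% of male marrow, 17.5% and 5.46% of spleen, and 7.48% and 7.99% of thymus. If each gene were placed in cells independently of the others, the library's own shares would give 22.4%, 3.72%, 15.3%, 3.41%, 4.27% and 3.78%. The observed share was the higher one in each of the 6 libraries. The largest number of members in 1 cell was 9, in female spleen. The 10% of cells with the most member UMIs held between 32.3% (female marrow) and 42.4% (male thymus) of them.

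**Figure D4:**
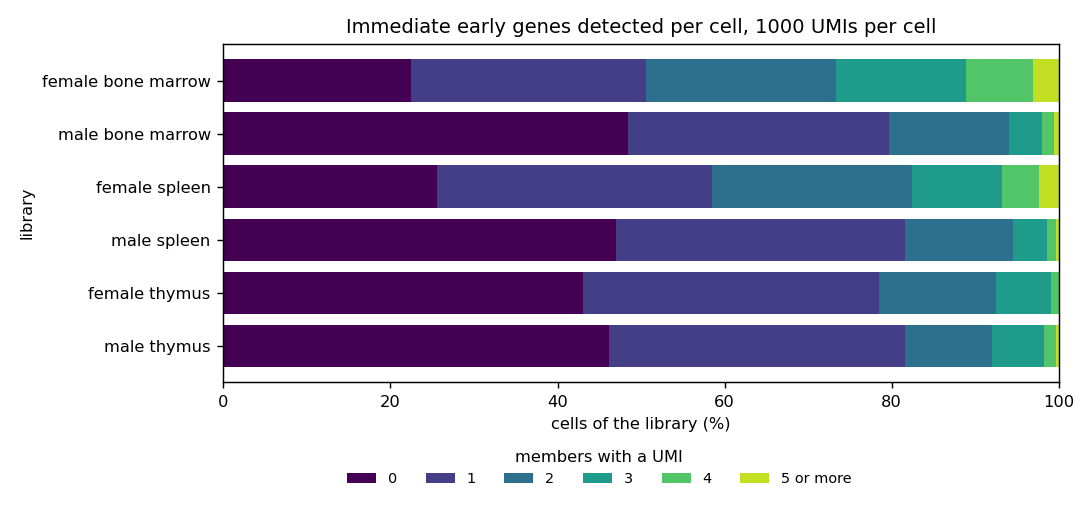
Share of cells (x axis, percent of the library's cells) by the number of the 10 members detected in a cell thinned to 1000 UMIs (colour), 1 bar per library (y axis). Cells with none of the 10 make up 22.5% of female bone marrow and 25.6% of female spleen, and 43.0% to 48.4% of the other 4 libraries.

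Members were found together in the same cells more often than their separate shares give. Over all 45 pairs, the number of cells with both genes divided by the product of the shares was 1.26 and 1.46 in female and male marrow, 1.26 and 1.36 in the spleen libraries, and 1.25 and 1.5 in those of the thymus. Pooled over libraries, 43 of 45 pairs were above 1, with a median of 1.33. A ratio of 1 is the value of independent placing. Pairs of other genes were not counted, and beside Fos the level of genes in general had a median ratio of 1.15. The highest pair of members was Egr1 with Ier2 at 2 (58 cells against 29.0), followed by Fosb with Ppp1r15a at 1.89 (105 against 55.4), Fosb with Egr1 at 1.83 and Fos with Dusp1 at 1.73 (70 against 40.6). The 2 pairs below 1 were Zfp36 with Cd69 at 0.939 and Egr1 with Dusp1 at 0.980 (7 cells against 7.14), and Dusp1 with Cd69 stood at 1. By member, Fosb had the highest ratio over its 9 partners, 1.49, and Zfp36, present in 18.1% to 28.6% of cells, the lowest, 1.10. These ratios describe cells of shared libraries and carry no test. The same count was 43 of 45 in IgM cells, 41 in IgG cells, 28 in IgA cells and 36 with a light chain share of at least 80%, with fewer cells in each.

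**Figure D5:**
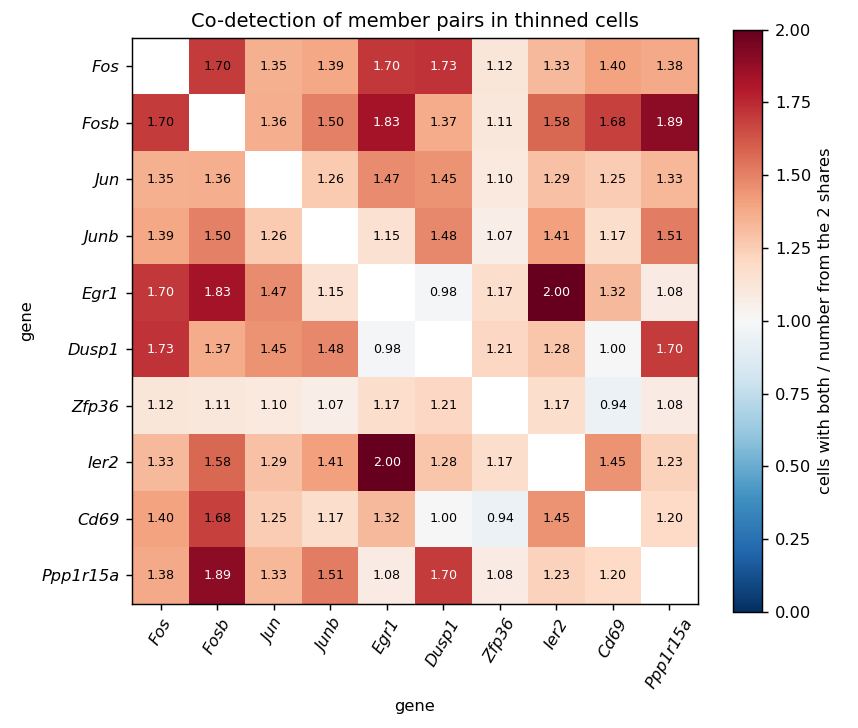
Number of thinned cells with both genes divided by the number from the 2 separate shares, for each pair of members (x and y axes), pooled over the 6 libraries; colour is white at 1, red above and blue below. The Fosb row is the reddest, up to 1.89 with Ppp1r15a, and the Zfp36 row stays between 0.94 and 1.21.

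Cells with a Fos UMI were set beside cells without one in the 4 marrow and spleen libraries, which held 445, 179, 975 and 185 such cells after thinning. Egr1 measured 133 and 55.5 CPM in cells with and without Fos in female marrow, 156 and 36.3 in male marrow, 104 and 41.3 in female spleen and 70.3 and 18.6 in male spleen. It was higher beside Fos in all 4 libraries, and its median ratio of 3.18 was the highest among the 6327 genes with a mean of at least 20 CPM. Fosb followed at 3.13 and Cd69, ranked 4, at 2.5. Dusp1 stood at 2.36, Jun at 2.04, Ppp1r15a at 1.79, Junb at 1.78, Ier2 at 1.56 and Zfp36 at 1.29. All 9 members other than Fos had a median ratio of at least the fold of 1.25 used here, as did 36.5 percent of all genes, whose own median was 1.15. The members' median was 2.04. Other genes of high ratio were Nt5dc3 at 2.41, B3galnt2 at 2.39, Fam120c at 2.38 and Dstyk at 2.31. Cells with Fos were shallower before thinning in 3 of these libraries, most in female spleen (median 3297 against 5160 UMIs), and their estimated free RNA share there was 24.1% against 20.7%; the part of these in the ratios was not tested.

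Across the 16 sums per library and class, each member's log2 level was set against the summed level of the other 9. Pearson's r was 0.90 for Fos, 0.83 for Fosb, 0.77 for Jun and 0.76 for Ier2, and 0.43 for Egr1 and 0.40 for Cd69. The genes outside the 10 with the highest r to their sum were Xist (0.81), Qdpr (0.80), H3f3b (0.77), Trappc2l (0.77) and Tvp23b (0.74) of 5965 compared. Xist is expressed from the inactive X chromosome, measured 672 to 1629 CPM in the female and at most 1.68 in the male libraries, and so carries the same split by sex. The 16 sums share 6 libraries, so these values are a description.

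The other genes of the early response were followed in the same fits. Of 51 further early response genes, 38 had enough counts to test, and edgeR called 1 lower in males, beside 0.267 percent of all genes, and 0 in each thymus comparison (7 and 3 at an unadjusted p under 0.05, against marrow and spleen), beside 0.765 and 0.632 percent. The 1 was Klf2, a transcription factor that raises exit receptors, at 45.2, 30.3 and 64.2 CPM in female marrow, spleen and thymus and 10.3, 12.9 and 7.57 in the male libraries. Klf2 fell by 2.07 on the log2 scale (SE 0.25, edgeR adjusted p = 6.43e-06). The summed level of the 51 genes stayed between 3244 and 3924 in all 6 libraries, whereas the 10 members ranged from 761 to 1849. Gene by gene, the median male minus female log2 difference of the 38 tested was -0.23, the direction of the members, beside 0.02 over all genes. Of the 38, 10 were higher in males, and 7 had an unadjusted edgeR p under 0.05. In IgA against IgM, 3 of 31 tested passed, a share near the 7.99 percent of all genes: Klf2 rose by 2.24 and Btg2 by 0.33, a call lost in 12 of 18 alternatives, and Cebpb fell by 0.85. In IgG against IgM, 12 of 31 passed beside 11.6 percent of all genes, 5 higher and 7 lower, with Gadd45b at 1, Btg2 at 0.74, Nfkbia at -0.92 and Zfp36l1, the relative of Zfp36, at -0.72.

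Signalling genes act upstream of the early response. Of 23, edgeR called 0 between the sexes (4 at an unadjusted p under 0.05), beside 0.427 percent of all genes, and 0 between thymus and marrow (2 unadjusted), beside 0.765 percent. Between thymus and spleen 1 passed, beside 0.632 percent: Elk3, a partner of serum response factor, which was higher in thymus than in spleen by 1.74 on the log2 scale (SE 0.34, edgeR adjusted p = 0.00696). In IgA against IgM 1 of 21 tested passed, beside 7.99 percent of all genes: Rps6ka1, higher by 0.45 on the log2 scale, a call lost in 9 of 18 alternatives. In the integrated stress response, the pathway that Ppp1r15a shuts off, 7 of 17 tested genes passed in IgA against IgM (7.99 percent of all genes), 6 of them lower, and 12 of 17 in IgG against IgM (11.6 percent), 10 of them lower, while Ppp1r15a had differences of -0.14 (SE 0.15) and -0.29 (SE 0.12) that did not pass. Slc3a2 fell by 1.21 and 1.51, Chac1 by 1.5 and 1.53, and Asns in IgG by 1.54. Among 10 partners of Cd69 and exit or homing receptors, 7 passed in IgA against IgM, 5 higher and 2 lower, beside the same 7.99 percent. Ccr9 (4.78), Ccr10 (4.16) and Itgb7 (2.87), which guide cells to mucosal tissue, and Klf2 were higher there beside the higher Cd69. S1pr1, the receptor that Cd69 removes, was 1.81 higher in spleen than in marrow (SE 0.37, edgeR adjusted p = 0.0117).

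The members' levels near the limits of the cell rule are given without a test. The 1013 cells with a top light chain share of 50 to 55% had 1845 CPM over the 10 genes, and the 1044 barcodes at 45 to 50% had 1856. The 149 cells of 1000 to 1099 UMIs had 1037 and the 102 barcodes of 900 to 999 UMIs had 1197. These sets were pooled over libraries whose own levels ran from 761 (male bone marrow) to 1849 CPM (female bone marrow). Their mix of libraries was not matched.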

How the data were processed

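Gene expression libraries were made with the Chromium 5' kit (version 1.1), per the labels' protocols. The deposited values are UMI counts per gene and barcode, made by the authors with Cell Ranger (6.0.2 for the filtered and 4 for the raw matrices, per the file headers) on mm10 (GRCm38), per the submitters' processing notes. The 6 V(D)J libraries were not used here. The 10 members and all gene lists were chosen with earlier results of these data known.

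Counts of the kept cells were summed per library, and per library and top heavy constant gene, leaving out 395 immunoglobulin genes. Sums were fitted with edgeR 4.0.16 (R 4.3.3, quasi-likelihood, TMM, filterByExpr), with Benjamini-Hochberg adjustment over all 11239 or 9366 genes tested. The first fit had sex and tissue as terms over 6 sums (2 residual degrees of freedom), the second library and class over 16 sums (8). On simulated counts with 200 genes changed 4-fold (log2 change of 2), the fits recovered 100% for male minus female over 10942 genes, 87.5% for thymus minus bone marrow over 10961 and 99.5% for IgA minus IgM over 8526, with 6, 11 and 4 false calls. The changed genes were drawn from those above a minimum mean level, and the simulated sums held no difference between pools. Recovery on the real pools can therefore be lower. Shares of cells came from cells thinned to 1000 UMIs. In the ratios beside a Fos UMI, 0.5 UMI was added to each side. The free RNA profile came from barcodes of at most 100 UMIs outside the filtered list. No doublet caller was run, the light chain condition being the only guard against barcodes of 2 cells. Named genes outside the 10 were those past adjusted p 0.05 in a list (at most 4 of smallest p per comparison), the 5 most like the summed members and the 5 of highest ratio beside Fos; some genes that this rule names are not reported here. Alternatives covered DESeq2 1.42.0, size factors, filters, cell rules, marker-bearing and dividing cells, free RNA, model terms and each library left out. Intervals cover counting error only.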

Additional observations from a re-analysis of the deposited data

Results flagged for a closer look

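Junb ran against the direction of the other tissues in the thymus. Its male level was 1.68 times the female level there (108 against 64.2 CPM, exact 95% interval 1.01 to 2.97, on 17 UMIs in the female library), while it was 0.607 times the female level in bone marrow and 0.890 times in spleen. Each sex and tissue has 1 library, so the difference between tissues was not tested.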

How the results depend on the processing

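Over the 14 member differences with an edgeR adjusted p under 0.05 that did not choose the list, 0 of 252 alternative values changed sign and 191 stayed past an adjusted p of 0.05. The 14 were picked by their calls, and the alternatives reuse the same libraries. Unchanged signs among them therefore do not show how new pools would vary. Counts of genes or members called that moved by over 1.5 times follow, and the cause of each was not tested. The co-detection ratios, summed levels and ranges with 1 library left out come after them and need not have moved by that much. With DESeq2, genes called were 57 for thymus against bone marrow, 8 for spleen against bone marrow and 10 for male against female, and members called were 1 for IgG against IgM. With no filter on low counts, genes called were 131 for thymus against bone marrow, 119 for thymus against spleen, 103 for spleen against bone marrow and 101 for male against female. With a light chain share of at least 80%, genes called were 52 for thymus against bone marrow, 40 for thymus against spleen, 15 for spleen against bone marrow, 20 for male against female, 358 for IgA against IgM and 341 for IgG against IgA, and members called were 1 for thymus against bone marrow, 0 for thymus against spleen and 2 for IgG against IgA. With at least 2000 UMIs per cell, genes called were 82 for spleen against bone marrow and 117 for male against female, and members called were 5 for male against female. Without cells bearing a macrophage, T cell or neutrophil marker, genes called were 57 for thymus against bone marrow, 8 for spleen against bone marrow, 284 for IgA against IgM, 621 for IgG against IgM and 394 for IgG against IgA. Without cells bearing a B cell marker, genes called were 285 for thymus against bone marrow, 445 for thymus against spleen and 254 for male against female, and members called were 4 for thymus against bone marrow, 7 for male against female and 5 for IgG against IgM. Without dividing cells, genes called were 211 for thymus against bone marrow, 298 for thymus against spleen, 76 for spleen against bone marrow, 217 for male against female, 414 for IgA against IgM and 475 for IgG against IgA, and members called were 1 for spleen against bone marrow, 6 for male against female and 2 for IgG against IgA. With free RNA subtracted, genes called were 27 for thymus against bone marrow, 19 for thymus against spleen, 14 for spleen against bone marrow and 6 for male against female, and members called were 1 for thymus against bone marrow, 0 for thymus against spleen, 0 for male against female and 1 for IgG against IgM. With no sex term, genes called were 40 for thymus against bone marrow, 24 for thymus against spleen and 17 for spleen against bone marrow, and members called were 1 for thymus against bone marrow and 0 for thymus against spleen. With no tissue term, genes called were 8 for male against female, and members called were 1 for male against female. With sex and tissue in place of library, genes called were 207 for IgA against IgM, 452 for IgG against IgM and 270 for IgG against IgA, and members called were 1 for IgA against IgM, 1 for IgG against IgM and 1 for IgG against IgA. The co-detection ratio with a light chain share of at least 80% was 1.38 in female bone marrow and 1.12 in female spleen. In all barcodes of the filtered list, the summed level was 1635 in female bone marrow, 796 in male bone marrow, 1796 in female spleen, 873 in male spleen, 647 in female thymus and 836 in male thymus CPM. With at least 2000 UMIs per cell, the summed level was 1782 in female bone marrow, 1494 in female spleen and 694 in male thymus CPM. Leaving out 1 library at a time gave 16 to 353 genes and 0 to 5 members for thymus against bone marrow, 33 to 934 genes and 1 to 4 members for thymus against spleen, 11 to 158 genes and 0 to 1 members for spleen against bone marrow and 10 to 205 genes and 0 to 5 members for male against female. For the classes it gave 418 to 781 genes and 3 to 4 members for IgA against IgM, 571 to 1138 genes and 1 to 5 members for IgG against IgM and 433 to 1000 genes and 2 to 4 members for IgG against IgA. In the fit over 6 libraries this leaves 1 library in a tissue, assumed to vary like the others. Sign changes occurred only in members that had not passed. For thymus against bone marrow, log2 differences were Dusp1 0.054 (without marker-bearing cells), 0.087 (without dividing cells), 0.00023 (in IgM cells) and -1.09 to 0.41 (1 library left out), Zfp36 -0.0082 (unfiltered), -0.0080 (2000 UMIs), -0.018 (free RNA subtracted), -0.039 (no sex term) and -0.29 to 0.24 (1 library left out). For thymus against spleen, log2 differences were Fosb 0.68 (light chain share 80%) and -2.44 to 0.35 (1 library left out), Dusp1 -0.20 (without B cell marker cells), -0.29 (no sex term) and -0.62 to 0.89 (1 library left out). For spleen against bone marrow, log2 differences were Fos -0.55 to 0.42 (1 library left out), Fosb -1.84 to 0.30 (1 library left out), Jun -0.14 to 0.84 (1 library left out), Junb -0.64 to 0.21 (1 library left out), Ier2 0.0076 (without marker-bearing cells) and -0.31 to 0.0064 (1 library left out), Cd69 -0.017 (without marker-bearing cells), Ppp1r15a -0.16 (light chain share 80%) and -0.11 to 0.35 (1 library left out). For male against female, log2 differences were Junb -0.70 to 0.0065 (1 library left out). For IgA against IgM, log2 differences were Fos 0.076 (DESeq2), 0.15 (sex and tissue terms) and -0.10 to 0.21 (1 library left out), Dusp1 0.013 (light chain share 80%) and -0.74 to 0.33 (1 library left out), Zfp36 -0.068 (without dividing cells), Ppp1r15a -0.23 to 0.053 (1 library left out). For IgG against IgM, log2 differences were Fos -0.028 (unfiltered), -0.088 (without marker-bearing cells), -0.089 (without B cell marker cells), -0.055 (without dividing cells), -0.0095 (free RNA subtracted) and -0.048 to 0.048 (1 library left out), Dusp1 0.059 (light chain share 80%) and -0.17 to 0.041 (1 library left out). For IgG against IgA, log2 differences were Fos -0.057 (DESeq2), -0.097 (sex and tissue terms) and -0.21 to 0.15 (1 library left out), Dusp1 -0.51 to 0.78 (1 library left out), Ppp1r15a 0.13 (without dividing cells). The labels carry no replicate numbers to use as a block; the sex term and the library term set tissues side by side within a sex and classes within a library. Counts of members called include Fos and Dusp1 between the sexes and Egr1 between tissues, which chose the list and carry no test. Low counts limit the thymus, where Egr1 rests on 3 and 5 UMIs, and the male IgA sums.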

Other observations

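Heat shock genes, which are often induced by the same handling as immediate early genes, summed to 2078 to 2479 CPM in the 6 libraries, a narrower span than the 10 members. Scaled by TMM, Hsp90ab1 alone stood at 618 (female thymus) to 1328 (female spleen), while Hspa1a and Hspa1b reached at most 5.16 and 4.55. The part of handling in these levels was not tested. Gene by gene, the median male minus female log2 difference of the heat shock genes was -0.50, the direction of the members, with 0 of 15 called by edgeR and 7 at an unadjusted p under 0.05. By class, Hspb1, a small heat shock protein, fell by 1.99 on the log2 scale in IgA and by 3.14 in IgG cells relative to IgM (edgeR, SE 0.39 and 0.34), and Hsp90ab1 fell by 0.41 in IgG cells. Of 13 heat shock genes tested, edgeR called 1 in IgA and 2 in IgG relative to IgM, beside 7.99 and 11.6 percent of all genes. These 2 comparisons share the IgM sums. Among homing and exit receptors, Itgb7 (log2 difference 0.75), Itga4 (0.63) and S1pr4 (0.59) rose in IgG cells relative to IgM.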
